A study of Mus musculus with 6 samples.

Results

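The genes for the opioid peptides and their receptors were described in the nucleus accumbens of mice that had received repeated cocaine or saline. The members were taken by symbol: the precursor genes Penk, Pdyn and Pnoc and the receptor genes Oprm1, Oprd1, Oprk1 and Oprl1. All 7 members were found, each as a single record, in a table of 21203 gene symbols and 21540 records, and 6 of the 7 carried a test. RNA was sequenced from nucleus accumbens, the ventral striatal region known for its role in reward, of mice of the strain C57BL/6. The cocaine group, 3 libraries, had been given 7 daily intraperitoneal injections at 20 mg/kg, and the saline group, also 3 libraries, had been given saline on the same schedule. Withdrawal had lasted 4 h in both. The labels give no age or sex and do not say whether a library held tissue of a single animal or of several, so the spread behind any test may be technical. For the saline libraries the protocol field also describes cocaine, and the grouping follows their treatment label. The labels name no transgene or other genetic change in either group.

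Opioid peptides are cut from larger precursor proteins by convertases that cleave at pairs of basic residues, and they act on receptors coupled to inhibitory G proteins. Proenkephalin (Penk) yields enkephalins, which act mainly on delta and mu receptors. Prodynorphin (Pdyn) yields dynorphins, which act mainly on the kappa receptor. Prepronociceptin (Pnoc) yields nociceptin, the ligand of the receptor encoded by Oprl1. In the striatum enkephalin is known as a product of spiny neurons with D2 dopamine receptors and dynorphin of those with D1 receptors. Mu receptors mark the striatal patches, and kappa receptors on dopamine terminals are known to restrain dopamine release.

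The peptides can be read in the reference sequences of the precursor mRNAs, and the stretches below show what those sequences encode. A classical opioid peptide begins with Tyr-Gly-Gly-Phe followed by Met or Leu, whereas nociceptin begins with Phe-Gly-Gly-Phe. The codons for these residues were searched in frame, on the coding strand only, in the longest coding sequence of each gene in GENCODE mouse release M21 (GRCm38). Capitals mark the codons of the opioid motif and of the residue after it, and the lower-case flanks are the 6 bases on either side, where the basic codons lie. Sites are numbered from the start codon.
Penk site 1: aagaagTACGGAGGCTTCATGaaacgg
Penk site 2: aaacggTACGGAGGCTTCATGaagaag
Penk site 3: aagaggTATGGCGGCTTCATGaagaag
Penk site 4: aagaggTATGGGGGCTTCATGagaagc
Penk site 5: aagcgcTACGGGGGCTTCATGagaagg
Penk site 6: aagaggTATGGGGGCTTCCTGaagcgc
Penk site 7: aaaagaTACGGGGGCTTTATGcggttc
Pdyn site 1: aaacgcTATGGCGGCTTTTTGcgcaaa
Pdyn site 2: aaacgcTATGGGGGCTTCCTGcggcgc
Pdyn site 3: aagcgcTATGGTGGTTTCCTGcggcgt
Pnoc site 1: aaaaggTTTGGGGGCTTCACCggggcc
Pomc site 1: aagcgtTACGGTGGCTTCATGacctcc

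The coding sequence of Penk (268 codons) held 7 sites, of which 6 continue with Met and 1 with Leu. They lie in exon 2 of the transcript read, within chr4:4133842-4134354 of GRCm38 on the minus strand. The coding sequence of Pdyn (248 codons) held 3 sites, all continuing with Leu, in exon 4, within chr2:129688067-129688258 on the minus strand. Pnoc (212 codons) held 1 nociceptin start in exon 3, at chr14:65404872-65404898 on the minus strand. Pomc, the precursor of beta-endorphin and no member here, held 1 site in exon 4, at chr12:3960367-3960393 on the plus strand. All 12 sites follow 2 basic codons, and 8 of them, 5 in Penk and 3 in Pdyn, are also followed by 2 basic codons.

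Among the 13975 tested genes with a usable coding sequence, 49 (0.351%) held the Tyr-Gly-Gly-Phe codons in frame at least once. Only 3 of these genes held them directly after 2 basic codons, namely Penk, Pdyn and Pomc, and Penk and Pdyn were the 2 genes with more than 1 site. The Phe-Gly-Gly-Phe codons occurred in 83 genes (0.594%), and after 2 basic codons in 2, Pnoc and the protein phosphatase gene Ppm1k. The map of motif codons along the precursors shows no site before codon 100 in any of the 4 genes. In Penk the sites run from codon 100 to codon 262 of 268, and in Pdyn from codon 166 to codon 221 of 248. A match in letters is a description and does not show that a peptide is made.

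**Figure D1:**
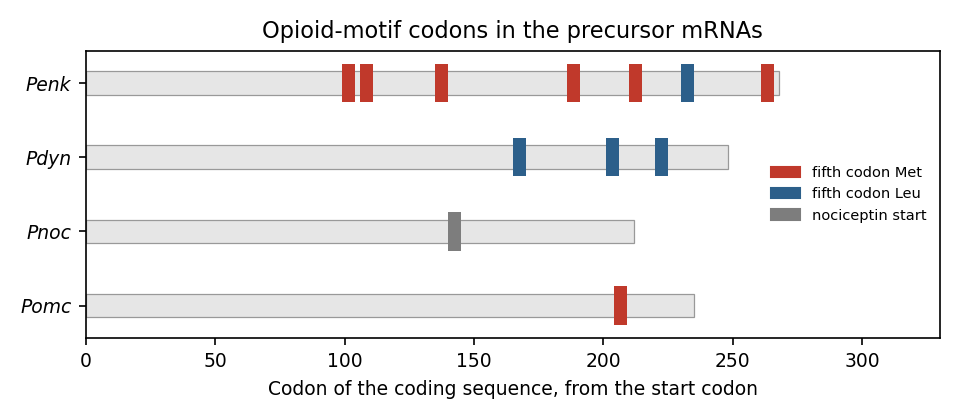
Codons of the opioid motif along the coding sequences of Penk, Pdyn, Pnoc and Pomc, with the codon number from the start codon on the x axis. Coloured blocks stand for the 5 codons of each site, by the residue after the motif. Penk holds 7 sites, Pdyn 3, and Pnoc and Pomc 1 each.

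The 3 precursors lay far apart in level. Values are FPKM, fragments scaled to the length of the transcript and the size of the library, which allow levels of different genes to be set side by side. The authors' deposited table gives 1 group value per gene and no value per library, so no SD stands beside them and no overlap of libraries can be given. Penk reached 1531 FPKM in saline and 1498 FPKM in cocaine. That made it the 20th highest of all 21540 records in saline and the 19th in cocaine. Pdyn stood at 155.7 FPKM in saline and 145.6 FPKM in cocaine, higher than 97.3% and 97.1% of tested records. Pnoc stood at 0.841 FPKM in saline and 0.759 FPKM in cocaine, higher than only 11.9% and 11.3% of tested records.

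Enkephalin precursor mRNA was therefore 9.83 times as abundant as that of dynorphin in saline and 10.3 times in cocaine. It made up 90.7% and 91.1% of the summed FPKM of the 3 precursors. Weighted by the number of motif sites printed above, the excess of Penk over Pdyn was 22.9 times in saline and 24.0 times in cocaine. That weighting counts what the mRNAs encode and not peptide.

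The 4 receptors lay within a narrow range, from 5.01 to 16.1 FPKM over both groups. Oprl1, the nociceptin receptor, was the highest, at 16.1 FPKM in saline and 15.9 FPKM in cocaine. Oprk1, the kappa receptor, followed at 12.8 and 13.9 FPKM. Oprm1, the mu receptor, stood at 9.76 and 8.18 FPKM. Oprd1, the delta receptor, was the lowest, at 5.32 and 5.01 FPKM. The order Penk, Pdyn, Oprl1, Oprk1, Oprm1, Oprd1, Pnoc was the same in both groups.

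Neighbours in that order were close among the receptors and far apart elsewhere. Oprl1 was 1.26 times Oprk1 in saline and 1.14 times in cocaine. Oprk1 was 1.31 times Oprm1 in saline and 1.70 times in cocaine. Oprm1 was 1.84 times Oprd1 in saline and 1.63 times in cocaine. Without values per library, whether such neighbours differ beyond the spread between libraries cannot be said. The steps from Pdyn down to Oprl1 (9.67 times in saline) and from Oprd1 down to Pnoc (6.32 times in saline) were larger than any step among the receptors.

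Ligand and receptor levels did not run in parallel. The nociceptin receptor Oprl1 was 19.2 times its precursor Pnoc in saline and 20.9 times in cocaine. For the kappa pair the precursor exceeded the receptor, Pdyn being 12.2 times Oprk1 in saline and 10.5 times in cocaine. Penk was 288 times the delta receptor Oprd1 in saline and 299 times in cocaine. Tissue mRNA of a receptor leaves out mRNA in the cell bodies of fibres that enter the region from elsewhere.

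**Figure D2:**
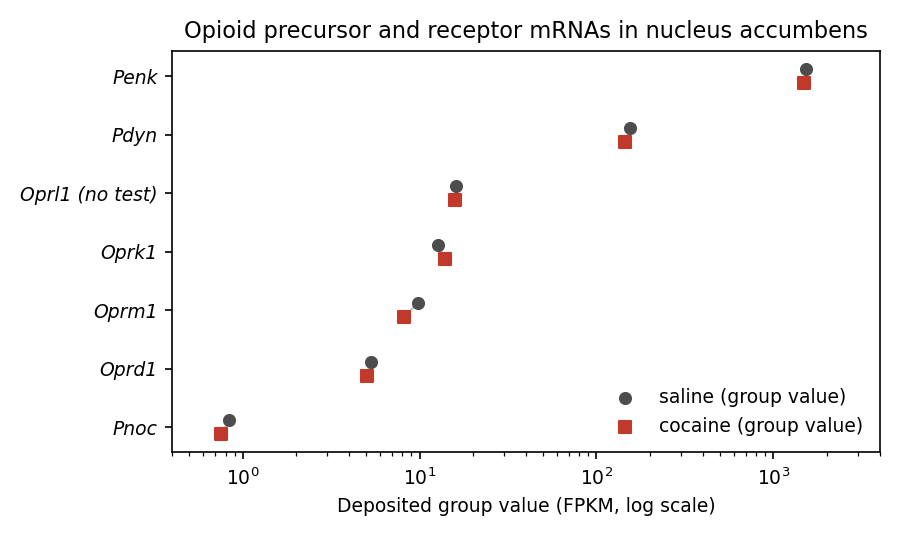
Deposited group values of the 7 members in FPKM on a log axis, saline as circles and cocaine as squares, with no error bars because the table gives no value per library. Penk lies at 1531 and 1498 FPKM, the receptors between 5.01 and 16.1 FPKM and Pnoc below 1 FPKM, and the pair of values of each gene lie close together.

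The comparison asked which of these mRNAs differed between cocaine and saline. In the authors' deposited table, at q < 0.05, the tested members gave 0 calls among 6, against 1.23% of the 14959 tested records. At an unadjusted deposited p under 0.05, 1 of the 6 passed, Penk, against 5.76% of all tested records. The q-value of the other 5 was 0.999976. The table's tool is described in the processing notes as Cufflinks, and no other test could be run on group values. Of the 6 tested members 5 lay below 0, as did 59.0% of the 14959 tested records. The median log2 fold change, cocaine over saline, was -0.09 over the 6 members and -0.02 over those records. The count and the median are descriptions.

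The precision differed widely between members. An error on the log2 scale was read back from each deposited p as the fold change divided by the two-sided normal score of that p. This holds only if the authors' test was a normal test of the log ratio, which the file does not state. Each 95% interval given here is the fold change plus or minus the normal quantile times this implied standard error (SE).

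Penk differed by -2.17% in cocaine (log2 fold change -0.03, implied SE 0.015; the authors' deposited p = 0.0346, q = 0.970). The implied interval ran from -4.14% to -0.158%, the narrowest of the 6 and the only one that did not span 0. Among the 78 tested records above 500 FPKM, 24 passed q < 0.05 and 43 had an unadjusted p under 0.05. The called ones included mitochondrial records with larger differences, such as mt-Nd5 (log2 fold change 0.43), and small differences, such as Cpe (-0.06). When the dependence of fold changes on transcript GC content and length was subtracted, the value for Penk turned to 0.0052. The non-coding gene A830012C17Rik overlaps 233 of its 1634 exonic bases on the opposite strand in GENCODE M21. Whether the authors counted by strand is not stated in the sources used, so reads of the pair cannot be told apart there.

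Pdyn differed by -6.47% (log2 fold change -0.10, implied SE 0.063; the authors' deposited p = 0.123). The interval ran from -14.1% to 1.82%. Pnoc differed by -9.76% (log2 fold change -0.15, implied SE 0.28; the authors' deposited p = 0.593), with an interval from -38.1% to 31.5%. At 0.841 FPKM it was the only member under 1 FPKM, and a pseudocount of 1 brought its log2 value to -0.07. All 3 precursors were thus listed lower in cocaine, as were 59.0% of all tested records, and none of the 3 passed the threshold.

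Oprk1 was the one member listed higher in cocaine, by 8.74% (log2 fold change 0.12, implied SE 0.082; the authors' deposited p = 0.141). Its interval ran from -2.74% to 21.6%. It sat beside a Pdyn value on the other side of 0, and the difference between the changes of ligand and receptor was not tested. Oprd1 differed by -5.65% (log2 fold change -0.08, implied SE 0.073; the authors' deposited p = 0.249), with an interval from -14.5% to 4.16%.

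Oprm1 had the widest difference and the least precise value. It differed by -16.1% in cocaine (log2 fold change -0.25; the authors' deposited p = 0.640), with an implied SE of 0.54 and an interval from -59.8% to 75.2%. The median implied SE of the 5012 other records within 2-fold of its level was 0.13, and 98.8% of them had a smaller one. With an error of that size, a change of the mu receptor as large as the one listed was not detectable. Oprk1, at a similar level, had an implied SE smaller than that of most records near it, with 32.7% below it.

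Features of the Oprm1 locus are given beside that value. GENCODE M21 lists 31 transcripts for Oprm1, against 11 for Oprl1, 5 for Oprk1, 3 for Pdyn, 2 each for Penk and Pnoc and 1 for Oprd1. The gene body overlaps that of Ipcef1 on the opposite strand over 152403 bases. Of the 8037 exonic bases of Oprm1, 96 are exonic in both. Ipcef1 was listed at 4.47 FPKM in saline and 3.77 FPKM in cocaine, with a log2 fold change of -0.25 and a deposited p of 0.0325. The listed fold changes of the 2 overlapping genes were alike, but the implied interval of Oprm1 is too wide for that likeness to be informative. Without a stated strand setting their reads cannot be told apart where they overlap. The part of transcript number and overlap in the Oprm1 value was not tested.

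Oprl1 had no test. Its record is marked as failed, and its deposited fold change of 0 and p of 1 are fillers. Recomputed from the group values, the difference was -1.45% (log2 fold change -0.02). Of the 217 failed records 210 reached 1 FPKM. The median of all 217 was 16.8 FPKM in saline, so a failed test did not go with a low level. As a share of the 4 receptors summed, Oprl1 made up 36.7% in saline and 37.0% in cocaine, Oprk1 29.0% and 32.3%, Oprm1 22.2% and 19.1%, and Oprd1 12.1% and 11.7%.

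**Figure D3:**
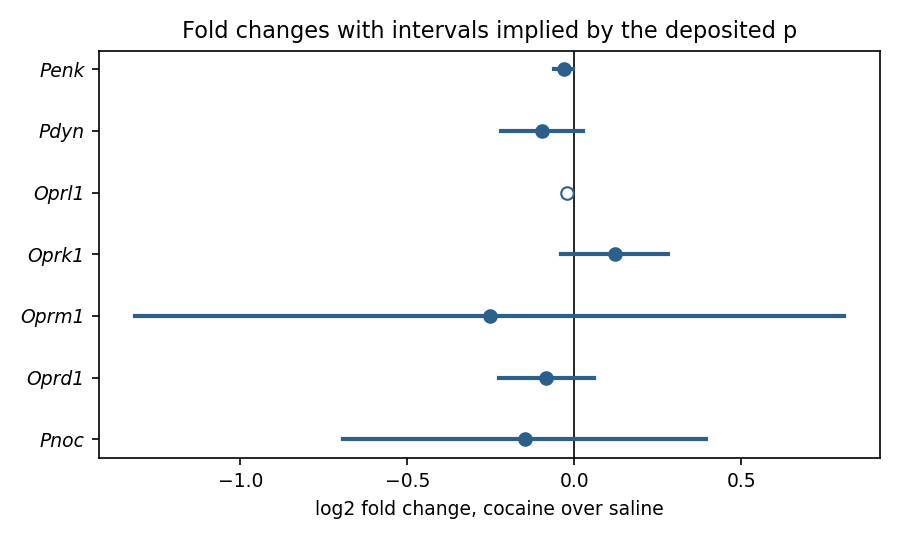
log2 fold change, cocaine over saline, of the 7 members, with the 95% interval implied by the deposited p as a bar (Oprl1, open circle, has no test). The bar of Oprm1 runs from -1.32 to 0.81, while that of Penk runs from -0.06 to below 0.

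**Figure D4:**
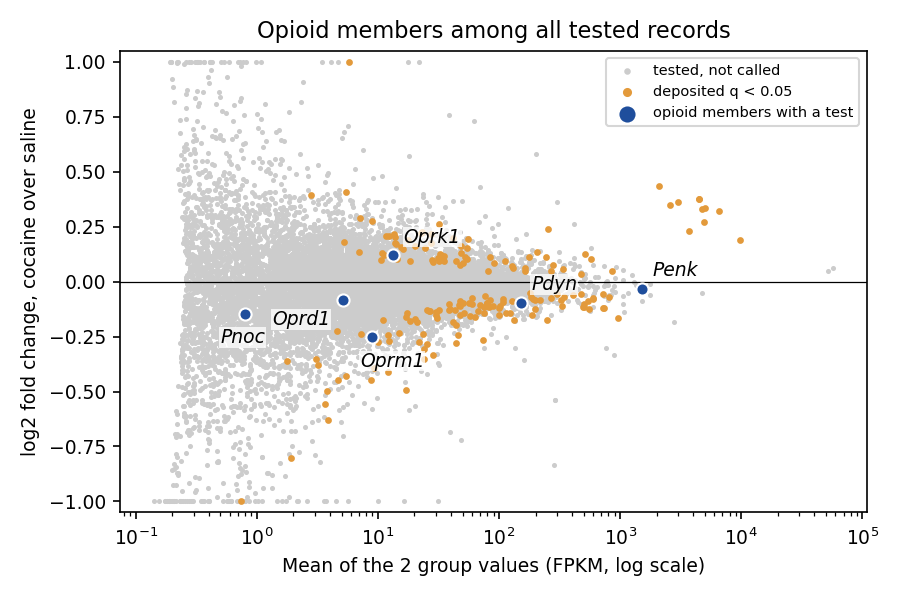
log2 fold change against the mean of both group values in FPKM (log axis) for tested records, with called records in orange and the 6 tested members in blue. Records beyond 1 in either direction are drawn at the edge. The 6 members lie among records that were not called.

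The spiny neurons that make enkephalin and dynorphin were represented by their markers, none of which was called, beside 1.23% of all tested records. At that share, marker lists this short, here and below, would often hold 0 calls. The counts therefore do not show that these cells were unchanged. Of 9 general spiny neuron markers 0 passed q < 0.05, and their summed level was 1726 FPKM in saline and 1671 FPKM in cocaine. Of these 9, 8 were listed lower in cocaine, beside 59.0% of all tested records, and 2 were lower at an unadjusted deposited p under 0.05. Ppp1r1b, the dopamine-regulated phosphatase inhibitor DARPP-32, stood at 829 and 795 FPKM (the authors' deposited q = 0.289). The 7 D1-type markers gave 0 calls, and 5 of them were listed lower. Their median log2 fold change was -0.03 and their summed levels were 369 and 358 FPKM. Among them Tac1, the substance P precursor that shares its neurons with Pdyn, stood at 219.9 and 217 FPKM (the authors' deposited p = 0.682). Chrm4, a muscarinic receptor gene of the same list, had the smallest p of the spiny neuron markers and stood at 44.8 and 39.4 FPKM (log2 fold change -0.18; the authors' deposited p = 0.000781, q = 0.0710). The 5 D2-type markers found also gave 0 calls, and all 5 were listed lower. Their median was -0.05 and their summed levels were 292 and 283 FPKM. Adora2a, the adenosine receptor of the enkephalin neurons, stood at 119.6 and 118 FPKM (the authors' deposited p = 0.349). Drd1a stands in both the general and the D1-type list, and Drd2 and Adora2a in both the general and the D2-type list. The counts and sums of the lists are therefore not independent. In bulk tissue fewer cells of a type and less RNA per cell cannot be told apart.

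Penk thus exceeded Adora2a, Drd2 and the other D2-type markers summed. Pdyn was below Tac1 and above the D1 receptor gene Drd1a (65.0 and 63.8 FPKM) in both groups. The 3 cholinergic interneuron markers found gave 0 calls and a median log2 fold change of 0.09. Chat, the enzyme that makes acetylcholine, stood at 5.56 and 5.28 FPKM, and Slc5a7, the choline transporter, at 6.16 and 6.71 FPKM (the authors' deposited p = 0.0406). Of the 8 genes listed for GABA interneurons 1 fell and 7 did not pass, with 4 of the 8 below 0 and a median of 0.02. Cck, the cholecystokinin precursor, was the fall, from 48.0 to 39.6 FPKM (log2 fold change -0.28, the authors' deposited q = 0.0127). Which cells the Cck mRNA came from cannot be told in bulk tissue. Calb2, the calretinin gene, stood at 7.05 and 5.86 FPKM (the authors' deposited p = 0.0227, q = 0.791), and Sst, the somatostatin precursor, at 328 FPKM in both groups.

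Some markers of other cells and of neighbouring tissue differed between the groups. All 6 cortical glutamatergic markers were listed lower in cocaine, with 1 called (Slc17a7) and summed levels of 60.1 and 53.2 FPKM. Of 4 endothelial markers all were listed lower and 1 was called (Cldn5), with sums of 26.7 and 21.1 FPKM. Beside these counts, 59.0% of all tested records lay below 0. The choroid plexus list summed to 8.97 and 19.3 FPKM, with 1 called gene, Ttr, which went from 0.668 to 10.8 FPKM. The other 5 members summed to 8.30 and 8.43 FPKM, but they did not move together. Clic6 went from 6.42 to 5.65 FPKM and Kl from 1.46 to 1.42 FPKM. Kcnj13 went from 0.0658 to 0.581 FPKM, Folr1 from 0.234 to 0.618 FPKM and Aqp1 from 0.117 to 0.158 FPKM. None of these was called, and Aqp1 had no test. Hypothalamic markers summed to 3.23 and 3.35 FPKM, and Hcrt, Pmch, Oxt and Avp were each at or below 0.152 FPKM, though no marker was at 0. The 4 astrocyte, 4 oligodendrocyte and 4 microglial markers gave 0 calls. The part of these cells in the opioid values was not tested.

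Other genes of opioid signalling were taken from 6 lists. Of their 57 tested genes 1 rose, 3 fell and 53 did not pass q < 0.05 in the authors' deposited table, with a median log2 fold change of -0.03. The share called, 7.02%, stands beside 1.23% of all tested records, of which 0.521% were called higher and 0.709% lower. The lists were chosen with earlier results of these data known, so the shares are a description and no test of enrichment. The 4 called genes were Pcsk1n, Cpe, Junb and Adcy1.

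Peptide processing genes held 2 of these calls, both falls. Pcsk1n encodes proSAAS, an inhibitor of the convertase PC1/3, and fell from 574 to 527 FPKM (log2 fold change -0.12, the authors' deposited q = 3.49e-12). Cpe, the carboxypeptidase that trims basic residues from cut peptides, fell from 738 to 710 FPKM (log2 fold change -0.06, the authors' deposited q = 5.09e-08). Both exceeded 500 FPKM, a level at which 24 of the 78 tested records were called. Their values were -0.05 and -0.02 once the dependence on GC content and length was subtracted. The convertase genes did not pass: Pcsk1 stood at 3.35 and 4.18 FPKM (the authors' deposited p = 0.00402, q = 0.249) and Pcsk2 at 75.8 and 74.0 FPKM (p = 0.0566). Scg2, a granin of dense-core vesicles, stood at 172 and 183 FPKM (the authors' deposited p = 0.00125, q = 0.103). Chgb had no test.

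None of the 8 peptide-degrading enzymes passed, with a median of -0.10 and 7 of 8 listed lower, beside 59.0% of all tested records. Mme, neprilysin, which cleaves enkephalins, stood at 5.46 and 5.89 FPKM (the authors' deposited p = 0.309). Anpep, an aminopeptidase, stood at 1.59 and 0.337 FPKM (log2 fold change -2.23, the authors' deposited p = 0.182), a wide difference at a low level. Dpp3 (11.98 and 11.2 FPKM, the authors' deposited p = 0.121) and Ece2 (12.3 and 11.1 FPKM, p = 0.201) had the other small p-values of the list.

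Of 14 G proteins and effectors of the receptors 1 rose and 13 did not pass. Adcy1, a calcium-stimulated adenylyl cyclase, rose from 17.7 to 18.9 FPKM (log2 fold change 0.09, the authors' deposited q = 0.00403). Gnai2, an inhibitory G protein subunit, stood at 88.6 and 82.7 FPKM (the authors' deposited p = 0.000867, q = 0.0772). Kcnj9, a subunit of the potassium channels that these receptors open, stood at 9.20 and 8.37 FPKM (the authors' deposited p = 0.0252, q = 0.830). Gnao1, the abundant Go subunit, stood at 413 and 433 FPKM (the authors' deposited p = 0.203).

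The 12 tested desensitisation and RGS genes gave 0 calls, with a median of 0.06 and 5 of 12 below 0. RGS proteins speed the shut-off of G proteins. Rgs4 (102 and 107 FPKM, the authors' deposited p = 0.0231), Rgs14 (49.1 and 54.6 FPKM, p = 0.0400) and the receptor kinase gene Adrbk2 (7.35 and 6.75 FPKM, p = 0.0277) had an unadjusted p under 0.05. Rgs9, whose striatal form acts on the G-protein signalling of mu and dopamine receptors, stood at 173 and 171 FPKM (the authors' deposited p = 0.544).

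The 5 other opioid-related genes gave 0 calls. Pomc stood at 1.67 FPKM in saline and 1.36 FPKM in cocaine (the authors' deposited p = 0.291), above Pnoc and far below Pdyn. Opcml, named for opioid binding, stood at 21.01 and 23.3 FPKM (the authors' deposited p = 0.0650), and Ogfrl1 at 23.3 and 23.1 FPKM (p = 0.747). Among 9 tested regulators known to bind control regions of Pdyn or Penk, Junb, an AP-1 subunit, fell from 27.0 to 21.1 FPKM (log2 fold change -0.35, the authors' deposited q = 1.94e-09) and 8 did not pass. Jund stood at 65.6 and 61.5 FPKM (the authors' deposited p = 0.0378) and Fosb at 2.67 and 2.89 FPKM (p = 0.251). Kcnip3, which encodes the calcium-binding Pdyn repressor DREAM, stood at 36.1 and 35.4 FPKM (the authors' deposited p = 0.587). Creb1, at 17.8 and 17.3 FPKM, had no test.

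**Figure D5:**
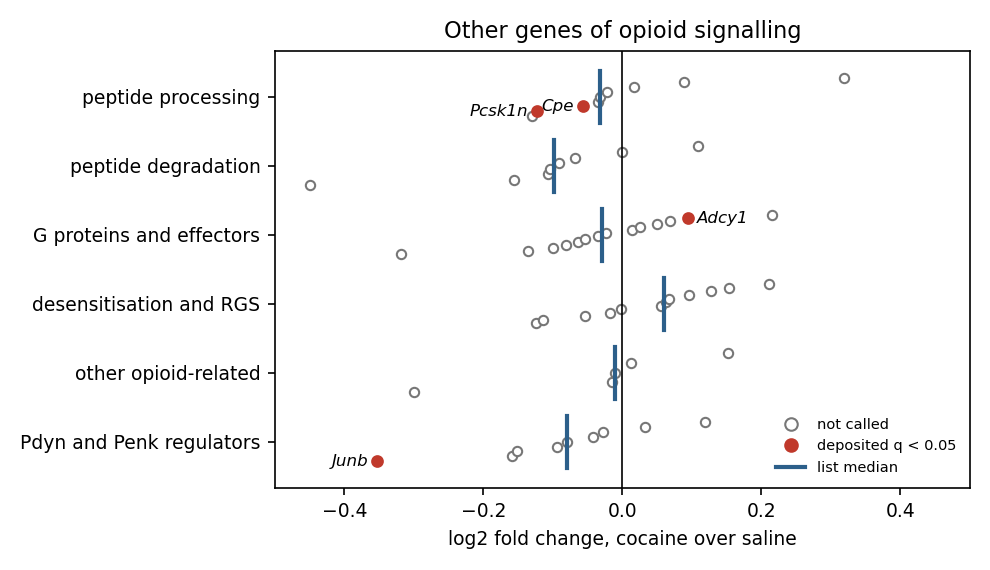
log2 fold change, cocaine over saline, of the 57 tested genes in 6 lists of opioid signalling, with called genes filled and named and list medians as bars. Anpep, at -2.23, is drawn at -0.45. The 4 called genes are Pcsk1n, Cpe, Adcy1 and Junb, and the medians lie between -0.10 and 0.06.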

How the data were processed

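RNA sequencing libraries of mouse nucleus accumbens, 3 per group, were processed by the authors with TopHat2 2.0.6 and Cufflinks 2.0.2 on build NCBIM37, per the submitters' processing notes. The sources used here give no settings, annotation, read length or strand. The group values deposited by the authors were read as FPKM from the Cuffdiff layout of the table, which names no unit. Each record's p-value and q-value come from the authors' test and were not recomputed. Library depth is unknown, and counting intervals were not made. Since a q-value is adjusted by a rule the file does not state, Benjamini-Hochberg adjustment of the deposited p over the 14959 tested records was computed as a check and gave 199 calls against 184.

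Calls used q < 0.05 among tested records, and for symbols with several records (185) the tested one with the highest mean was used in lists. The members and lists were chosen with earlier results of these data known. Named genes were the 7 members, every called gene of the 6 pathway lists, the 3 smallest p-values of pathway lists with fewer than 3 calls, and a short set of standard genes and markers. Other markers (Chrm4, Slc5a7, Cck, Calb2, Cldn5, 4 hypothalamic genes and the 5 choroid plexus genes besides Ttr) were named after their values were seen. The same holds for mt-Nd5 and for genes found by the motif search or overlap. Transcript GC content, length and codons came from GENCODE M21 (GRCm38), a later build than the authors', matched by Ensembl identifier for 97.4% of tested records of at least 1 FPKM. Members have no NCBIM37 position in the file. Alternatives were pseudocounts of 1 and 0.1, centring, rescaling without mitochondrial records, subtraction of the median fold change in cells of a 10 by 10 grid of GC content and length, and other call rules. Scripts used Python 3.11.15 with scipy 1.17.1 and were tested on simulated data.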

Additional observations from a re-analysis of the deposited data

How the results depend on the processing

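Under 5 other scalings or pseudocounts, 33 of 34 values of the 7 members kept their direction and 1 reversed: Penk, at -0.03 as deposited, stood at 0.0052 once the dependence on GC content and length was subtracted, and the cause was not tested. Oprl1 was not in that fit. The median over the 6 tested members ranged from -0.09 to -0.05. The number of members called stayed 0 at q < 0.1, after Bonferroni adjustment and with the p-values adjusted over records of at least 1 or 5 FPKM (Penk 0.635 and 0.520, Benjamini-Hochberg), and was 1 at an unadjusted p under 0.05. Pnoc, under 1 FPKM in both groups, was not in those 2 adjusted sets, which held the other 5 tested members. The number of called genes in the 6 lists was 4 in the main analysis, 5 at q < 0.1, 4 when adjusted over records of at least 1 FPKM and 13 at an unadjusted p under 0.05. List genes under 1 FPKM could not be called in that adjustment. No paired analysis was possible because the table holds group values only, and leaving out each replicate was not run for the same reason. Unknown depth and the absence of values per library limit every comparison, above all for Oprm1, Oprl1 and Pnoc.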
